A study of Mus musculus with 9 samples.

Results

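The 45 genes described here are the Wnt ligands, their receptors and the secreted and intracellular regulators of the pathway, taken from 18820 genes in the deposited table by symbol alone. The symbols were those of the Wnt, Fzd (Frizzled), Sfrp, Dkk, Rspo, Axin and Dact families and of Lrp5 and Lrp6. They comprise 17 ligands, 12 receptors, 7 secreted inhibitors, 4 secreted agonists and 5 intracellular regulators. RNA was sequenced from cortex of C57BL/6J mice at embryonic day 18.5 in 3 genotypes of Cyfip2: wild type (WT), heterozygote (Het) and knockout (KO), with 3 libraries each. The labels give no treatment, do not describe the mutated allele, and do not tie libraries to separate embryos, so the tests measure only how these libraries spread, which may be technical. The comparison asks whether RNAs of the Wnt pathway differ with the loss of 1 or both copies of Cyfip2, which encodes a subunit of the actin-regulating WAVE complex.

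Wnt proteins are secreted lipid-modified ligands that bind Frizzled receptors. With the co-receptors Lrp5 or Lrp6 they block the breakdown of beta-catenin, which then switches on target genes with Tcf/Lef factors, and other Frizzled signalling acts on the cytoskeleton and cell polarity. Sfrp proteins bind Wnt ligands in the extracellular space, Dkk1 and Dkk2 bind Lrp5 and Lrp6, and Rspo proteins raise signalling by sparing Frizzled receptors from degradation. Axin1 and Axin2 are scaffolds of the beta-catenin destruction complex, and Dact proteins bind Dishevelled inside the cell. In the developing forebrain, the cortical hem at the medial edge of the cortex is a known source of Wnt2b, Wnt3a and Wnt5a, and Wnt8b marks medial cortex that gives rise to the hippocampus. Wnt7a and Wnt7b are made by neural cells and act on brain blood vessels through Reck and Adgra2.

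Values were read as gene counts that the authors divided by size factors, called normalized counts below. Approximate depth lay between 29.4 and 54.4 M (mega) reads per library. The cortical markers Tbr1 (8835 to 11543 normalized counts) and Emx1 (1005 to 1342) were present in every library. Cyfip2 normalized counts were 10169 to 11174 in WT, 8969 to 9882 in Het and 7522 to 8255 in KO, with no overlap between genotypes and with RNA still present in KO. Markers of meninges and olfactory bulb differed between libraries, and whether this came from dissection was not tested. Het replicate 3 had a summed level of 7 meningeal markers of 347, against 7930 to 18017 in the other 8 libraries. The olfactory bulb marker Cdhr1 was high (2138 to 3436) in WT replicate 3, Het replicate 1 and KO replicates 1 and 2. Cdhr1 was at 21.8 to 53.1 in the other 5, which are 2 WT, 2 Het and only 1 KO library (replicate 3). Of the other listed olfactory bulb markers, Tbx21 had the same split, with 48.5 to 84.2 in the libraries high in Cdhr1 and less elsewhere. Nmb, Doc2g, Reln and Eomes did not have it. Nmb (68.3) and Doc2g (610) were lowest in KO replicate 1. Reln (13695) and Eomes (2806) were lower in WT replicate 3 than in WT replicates 1 and 2. The split by Cdhr1 is thus not one of the whole marker list. The Y-linked gene Ddx3y was at 0 in 2 KO libraries (replicates 1 and 2) and in Het replicate 1. Thus no WT library lacked it and sex is partly bound to genotype. All libraries without Ddx3y were also high in Cdhr1, so the sex and Cdhr1 splits differ only in WT replicate 3 and are not separate checks.

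Of the 45 members, 38 had a mean of at least 10 normalized counts over the 9 libraries and were tested: 12 ligands, 12 receptors, 6 secreted inhibitors, 3 agonists and all 5 intracellular regulators. The 7 below that level were Wnt2, Wnt3a, Wnt9b, Wnt10a, Wnt10b, Dkk1 and Rspo4. Wnt3a averaged 9.36 and Wnt10a 6.40 normalized counts, Dkk1 averaged 2.98, and Wnt2 and Rspo4 were each at 0 in 6 libraries. To compare genes with each other, normalized counts were divided by the summed length of a gene's exons in kb, and these are called levels per kb. 17 members reached a mean of 100 per kb.

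Among the ligands, Wnt7b stood highest, at a mean of 1273 per kb over the 9 libraries. Wnt7b (ENSMUSG00000022382, chr15:85535437-85582473 in GRCm38, minus strand) had 6540.5, 7290.1 and 4639.6 normalized counts in WT, 8827, 7763 and 4883 in Het, and 5403, 6090.5 and 4686 in KO. Replicate 3 was the lowest library in each genotype, and the genotypes overlapped. The related ligand Wnt7a (chr6:91363981-91411363, minus strand) followed at 327 per kb. Its normalized counts were 1075, 1086 and 1064 in WT, 1088, 1056 and 910.0 in Het, and 1131, 1140.4 and 796 in KO. All WT libraries lay within the KO range, and KO replicate 3 was lowest. Wnt5a, a ligand known for signalling that does not use beta-catenin, followed at 84.1 per kb. The per kb ranges of these 3 ligands over the libraries did not overlap. Wnt7a and Wnt7b together made up 83.6% ± 2.27 of the summed ligand level per kb in WT (SD, n = 3), 86.6% ± 1.90 in Het and 80.2% ± 2.36 in KO. Wnt7b alone made up 58.6% (KO replicate 1) to 73.1% (Het replicate 1).

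The receptors were more even. Fzd1 had the highest mean at 338 per kb, followed by the co-receptor Lrp6 at 306 and Fzd2 at 284, and the ranges of these 3 overlapped. With the longest transcript as the length, Lrp6 came to 446 per kb and ranked above Fzd1 at 338. Fzd1 had 1472, 1831 and 979 normalized counts in WT, 1517, 1869 and 984 in Het, and 1628, 1529 and 941 in KO. Replicate 3 was the lowest of each genotype. Lrp6 varied least of all members, with a ratio of 1.13 between its highest and lowest library. Its normalized counts were 4140.3, 4266 and 3917 in WT, 4140.2, 4386 and 3916 in Het, and 4214, 4407 and 4209.6 in KO, and the genotypes overlapped. Fzd2 had 1171, 969.5 and 907 in WT, 1379, 1047 and 813 in Het, and 1270.0, 1129 and 679 in KO, again lowest in replicate 3 of each genotype. Fzd5, the lowest receptor, was at 13.1 per kb.

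Secreted inhibitors reached levels like those of the ligands. Sfrp1 (chr8:23411502-23449632) was at 1101 per kb and Dkk3 at 599.6, and every library of Sfrp1 lay above every library of Dkk3 on this scale. Dkk3 is a member of the Dickkopf family whose role in Wnt signalling is less clear than that of Dkk1. Its normalized counts were 1505, 2026 and 2675 in WT, 1348, 1826 and 2768 in Het, and 1356, 1423 and 3199.9 in KO. It was highest in replicate 3 of each genotype. Beside it, the summed level of 5 cortical markers was highest in the same libraries, at 62954 in WT, 70099 in Het and 74959.6 in KO, against 48672 to 61295 in the other 6, and its part in the Dkk3 values was not tested. Sfrp2, at 259 per kb, had 643, 507 and 495 normalized counts in WT, 830.1, 566 and 425 in Het, and 514, 623 and 408 in KO, with replicate 3 lowest each time.

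Of the agonists, Rspo3 was at 173 per kb and Rspo2 at 97.1, and their ranges overlapped. Rspo3 had 597, 693 and 411 normalized counts in WT, 428, 638 and 572 in Het, and 491, 507 and 485 in KO. All KO libraries lay inside the WT range. Rspo2 had 386, 534 and 515 in WT, 313, 547 and 629.9 in Het, and 395, 449 and 697 in KO, with Het replicate 1 lowest and KO replicate 3 highest. Among the intracellular regulators, Dact1 stood at 703 per kb and Axin1 at 561, with overlapping ranges. Axin1 had 2216, 2388 and 1897 normalized counts in WT, 2049.5, 2250.2 and 2294 in Het, and 2062, 1999 and 2178 in KO, all Het and KO values lying within the WT range.

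**Figure D1:**
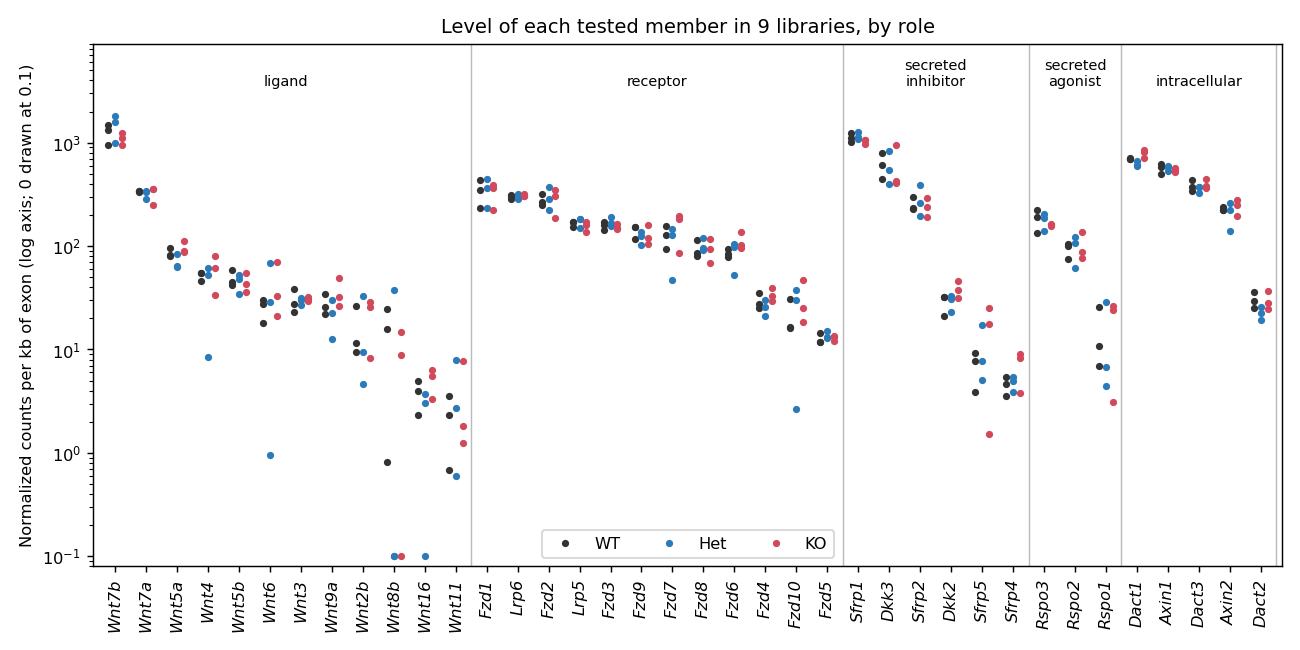
Level of each of the 38 tested members in normalized counts per kb of exon (log axis, values of 0 drawn at 0.1) for the 3 WT, 3 Het and 3 KO libraries, with 1 point per library and members ordered by role. Wnt7b and Sfrp1 lie highest, intracellular regulators such as Axin1 spread little between libraries, and ligands of low level such as Wnt6, Wnt8b and Wnt16 spread most.

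Levels per kb were also summed over each role. Ligands summed to 1907 ± 313 per kb in WT, 2063 ± 536 in Het and 1776 ± 265 in KO. Receptors summed to 1750.3 ± 181, 1766 ± 275 and 1793 ± 279, and secreted inhibitors to 2029 ± 146, 2074 ± 128 and 1923 ± 275 (SD, n = 3 each). Agonists summed to 292 ± 57.7, 288 ± 71.6 and 278 ± 17.0. For these 4 roles the genotypes overlapped. The intracellular regulators summed to 1866, 1953 and 1910.1 in WT, 1783, 1815 and 1741 in Het, and 2020.1, 2039.7 and 1939.8 in KO. Het lay below both other genotypes without overlap, while WT and KO overlapped. Dact1 and Axin1 make up most of this sum.

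The median member varied more between libraries than the median gene, with levels not matched. The median SD of log2(value + 1) over the 9 libraries was 0.32 for the 38 tested members and 0.14 for all 15069 genes tested. The median ratio of highest to lowest library, on value + 1, was 5.25 for ligands, 1.79 for receptors, 2.29 for secreted inhibitors, 2.22 for agonists and 1.43 for intracellular regulators. Genotype held a median of 15.5% of a member's variance, against 17.0% for all genes. Dact1 (78.9%) and Wnt5a (59.9%) had the highest shares among the members. Thus much of the spread lay between libraries of the same genotype, and it took 3 forms.

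**Figure D2:**
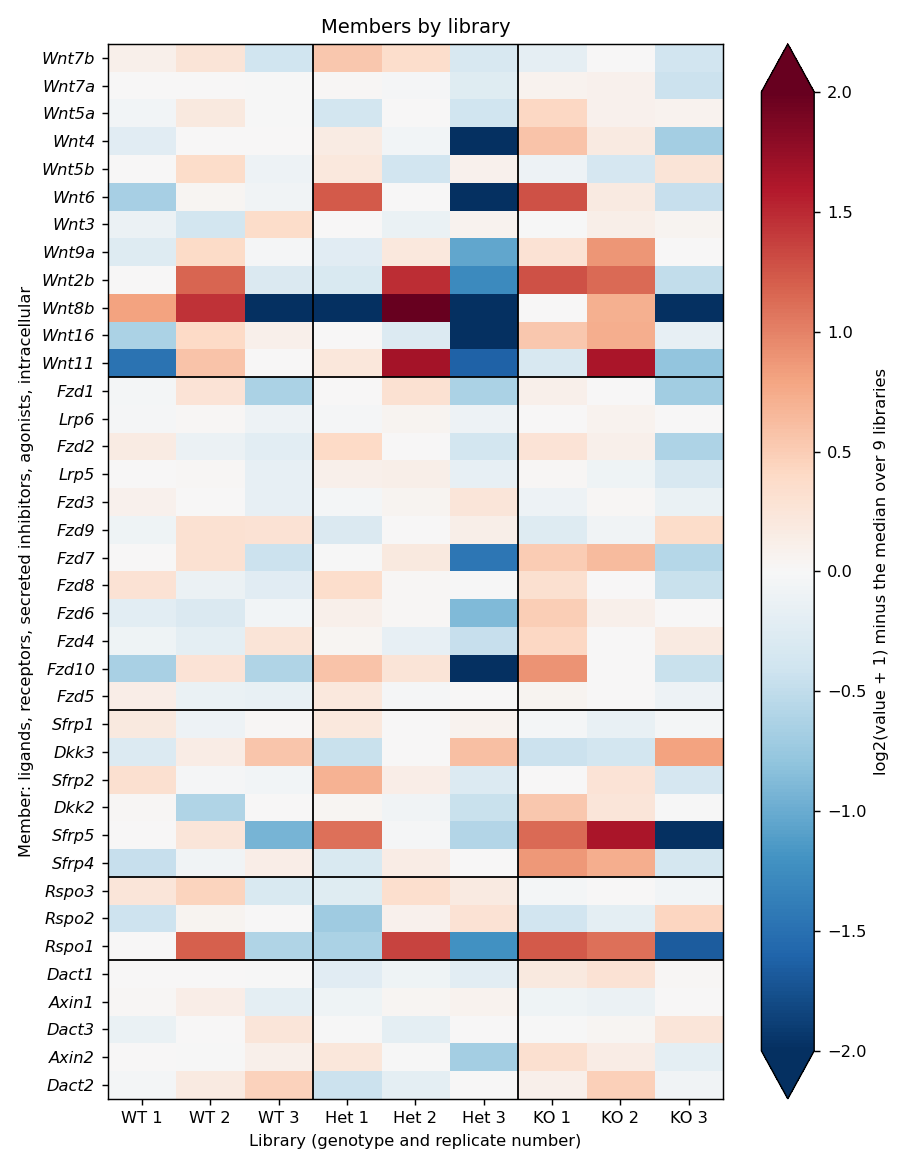
Each tested member (vertical axis, by role) in each library (horizontal axis), as log2(value + 1) minus the member's median over the 9 libraries; colours saturate at 2 in either direction. Wnt4, Wnt6, Wnt16 and Fzd10 are low in Het replicate 3, and Wnt2b and Rspo1 are high in KO replicates 1 and 2, WT replicate 2 and Het replicate 2.

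In the first form, Wnt2b, Wnt3a and Rspo1 were high in a set of libraries that crosses the genotypes, with Wnt8b high in an overlapping set. Wnt5a, also known from the hem, did not follow it, since KO replicate 3 (683) stood above Het replicate 2 (652). Wnt8b (chr19:44493472-44514273) had the largest spread, 132-fold on value + 1. Its normalized counts were 54.9, 86.2 and 2.82 in WT, 0, 131 and 0 in Het, and 30.9, 51.4 and 0 in KO. Het replicate 2 was highest, WT replicate 1 stood above every KO library, and 3 libraries from both mutant genotypes had none. Wnt3a (chr11:59248033-59290752, minus strand), named here after its values were seen, had 5.94, 22.9 and 0.934 in WT, 1.05, 29.0 and 0 in Het, and 9.94, 14.4 and 0 in KO. It was highest in the same library as Wnt8b. Wnt2b (chr3:104945272-104961921, minus strand) had 48.8, 111 and 39.7 in WT, 39.3, 138 and 19.6 in Het, and 119.6, 108 and 34.5 in KO. Rspo1 (chr4:124986430-125009099) had 21.1, 49.8 and 13.5 in WT, 13.2, 55.6 and 8.52 in Het, and 50.5, 46.6 and 5.98 in KO. Both were highest in KO replicates 1 and 2, WT replicate 2 and Het replicate 2, and so was Wnt3a. Of the 38 tested members, 6 (Fzd1, Fzd7, Lrp6, Rspo1, Wnt2b and Wnt9a) had those 4 libraries on top, or 15.8%, against 2.19% of all genes tested. This set of libraries was chosen after the values were seen.

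Most listed markers of hippocampus and hem moved with them. 5 of 6 had the same 4 libraries on top, while Grp was highest in replicate 3 of WT (271), Het (259) and KO (365). Lmx1a, a transcription factor of the hem, had 18.7, 54.4 and 3.93 normalized counts in WT, 10.5, 57.8 and 5.52 in Het, and 43.2, 37.9 and 6.59 in KO. It thus ranked the libraries much as Rspo1 did. The summed level of the 6 markers was mostly Zbtb20, which had 5142 to 14382 normalized counts over the libraries. The sum was 7577 to 14055 in WT, 8649 to 14931 in Het and 6075 to 16062 in KO, and no marker was at 0 in any library. Choroid plexus markers overlapped with this in part: their 6-gene sum was 3661 in WT replicate 2 and 12120 in Het replicate 2, and 61.2 to 1044 in the other 7. The part of tissue makeup in these members' values was not tested. In bulk tissue, fewer cells of a type and less RNA per cell cannot be told apart.

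The promoters of these 4 members are shown because their high libraries coincide, for Wnt8b in part; each is the 250 bases before the annotated start from RefSeq (GRCm38.p6), on the gene's strand. Capitals mark GGGCGG on either strand, overlapping matches included, and TAATTA, a palindromic homeodomain core. They lie at chr19:44493222-44493471 (Wnt8b, plus), chr11:59290752-59291001 (Wnt3a, minus), chr3:104961710-104961959 (Wnt2b, minus) and chr4:124986180-124986429 (Rspo1, plus). The RefSeq start of Wnt2b lies inside the gene span given above, which has another source, so most of the Wnt2b window overlaps that span.
Wnt8b: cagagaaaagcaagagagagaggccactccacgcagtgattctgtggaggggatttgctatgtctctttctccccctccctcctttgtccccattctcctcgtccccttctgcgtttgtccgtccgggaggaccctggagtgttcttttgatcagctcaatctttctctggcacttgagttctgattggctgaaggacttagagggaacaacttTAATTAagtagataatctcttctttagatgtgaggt
Wnt3a: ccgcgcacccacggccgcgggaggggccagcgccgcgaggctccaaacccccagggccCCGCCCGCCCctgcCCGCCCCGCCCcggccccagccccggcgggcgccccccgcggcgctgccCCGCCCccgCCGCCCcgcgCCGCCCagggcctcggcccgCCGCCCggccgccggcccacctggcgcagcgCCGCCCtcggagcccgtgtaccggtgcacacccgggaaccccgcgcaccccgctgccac
Wnt2b: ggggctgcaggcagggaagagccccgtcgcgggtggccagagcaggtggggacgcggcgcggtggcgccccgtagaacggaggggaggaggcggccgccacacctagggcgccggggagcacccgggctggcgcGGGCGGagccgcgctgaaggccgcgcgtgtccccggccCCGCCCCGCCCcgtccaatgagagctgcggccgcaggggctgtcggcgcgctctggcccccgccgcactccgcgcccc
Rspo1: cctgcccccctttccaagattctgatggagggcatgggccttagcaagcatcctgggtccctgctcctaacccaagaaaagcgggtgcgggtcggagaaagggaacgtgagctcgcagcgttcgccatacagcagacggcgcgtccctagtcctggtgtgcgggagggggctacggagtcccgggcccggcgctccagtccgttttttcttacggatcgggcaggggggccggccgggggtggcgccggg

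The 4 sequences differ widely in composition from each other. GC content was 48.4% for Wnt8b, 66.8% for Rspo1, 80.8% for Wnt2b and 87.6% for Wnt3a, with a median of 52.4% over all 32851 RefSeq promoters. GGGCGG occurred 9 times in Wnt3a and 3 times in Wnt2b, and not in this window of Wnt8b or Rspo1. Over the 30 members with a promoter entry, 23 held it (76.7%), against 32.7% of all promoters. Here and below, a member counted if any of its entries matched, while promoters were counted singly and not matched for GC content. TAATTA was in 1 of the 30, Wnt8b, or 3.33%, against 4.84% of all. A Tcf/Lef match, CTTTGAT or CTTTGAA on either strand, was in 3 (Dkk1, Wnt5b and Wnt11), or 10%, against 7.48%. The motifs were chosen after the sequences were seen, and a match is a run of letters, not a shown binding site.

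In the second form, ligands and a receptor were low in Het replicate 3. Wnt6 (chr1:74771892-74785322) had 39.5, 65.5 and 60.7 normalized counts in WT, 151, 63.5 and 2.07 in Het, and 155, 71.7 and 46.1 in KO. Wnt4 (chr4:137277489-137299726) had 195, 228 and 229.8 in WT, 256, 218 and 35.5 in Het, and 338, 259 and 142 in KO. Fzd10 (chr5:128600844-128604093) had 52.0, 99.0 and 53.9 in WT, 122, 98.0 and 8.70 in Het, and 154, 81.9 and 59.8 in KO. All of these were lowest in Het replicate 3 and highest in KO replicate 1. Wnt16 had 10.1, 21.5 and 17.4 in WT, 16.2, 13.2 and 0 in Het, and 24.1, 27.5 and 14.4 in KO. On value + 1, Het replicate 3 held 0.0758 of the next lowest library for Wnt6, 0.0901 for Wnt16, 0.183 for Fzd10 and 0.256 for Wnt4. No other tested member was below 0.5 of it, a mark that 3.22% of all genes passed. Het replicate 3, singled out after the values were seen, was the lowest library for 13 of 38 members (34.2%), against 18.8% of all genes. The 9 not yet described in this respect were Axin2, Fzd4, Fzd6, Fzd7, Lrp6, Wnt2b, Wnt5a, Wnt9a and Wnt11.

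Meningeal markers were low in the same library: all 7 listed were lowest in Het replicate 3, and Col1a1, a fibrillar collagen, had 87.2 normalized counts there against 2206 to 5328 elsewhere. The summed meningeal level was 7930 to 9582 in WT, 347 to 14383 in Het and 8722 to 18017 in KO. It was also highest in KO replicate 1. The 6 endothelial markers, of which all but Slco1c1 were lowest in Het replicate 3, summed to 5767 there and 7612 to 10198 in the others. Their part in the low Wnt6, Wnt16, Fzd10 and Wnt4 values was not tested. Some other pathway genes were low there too. Wls, the carrier that Wnt proteins need for secretion, had 392 normalized counts in Het replicate 3 and 829 to 1693 elsewhere. Nkd1, a feedback inhibitor and Wnt target, had 388 against 599 to 1411, and Lef1, a nuclear effector, had 125 against 175 to 432. Axin2, a target gene of beta-catenin named here after its values were seen, had 771 against 1071 to 1546. Of the 67 other pathway genes tested, 21 were lowest in Het replicate 3, against 18.8% of all genes, and 9 were highest there, against 16.8%. KO replicate 1 was highest for 21 of the 67, against 15.1% of all genes.

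**Figure D3:**
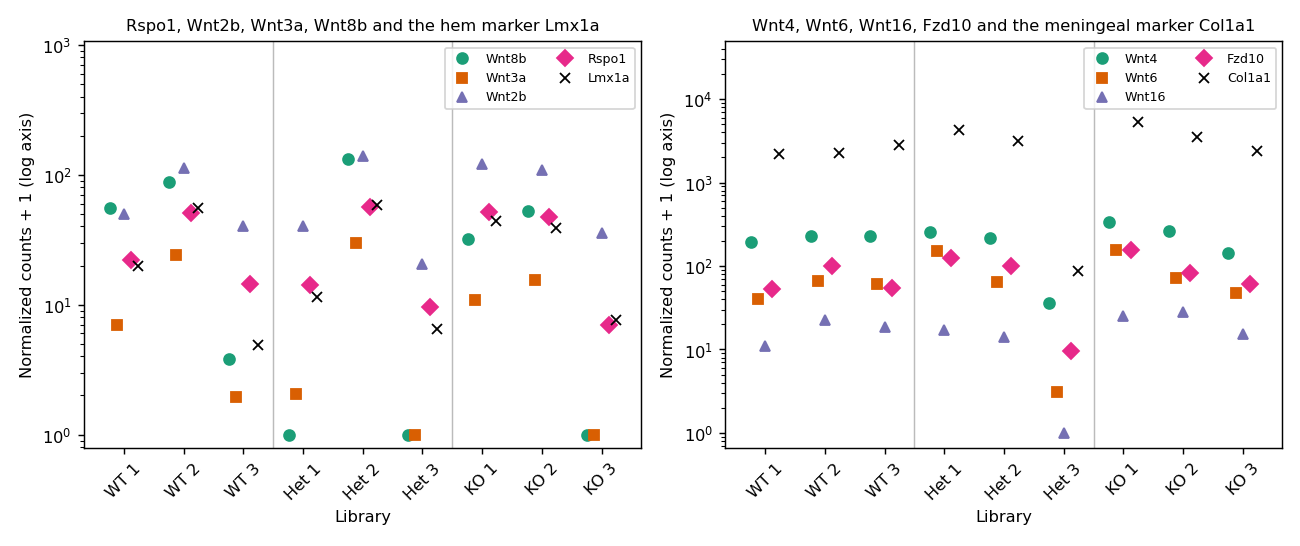
Normalized counts + 1 (log axis) in each library for Wnt8b, Wnt3a, Wnt2b and Rspo1 beside the hem marker Lmx1a (left), and for Wnt4, Wnt6, Wnt16 and Fzd10 beside the meningeal marker Col1a1 (right), 1 symbol per gene. The left group is high in WT replicate 2, Het replicate 2 and both KO replicates 1 and 2, with Wnt8b also high in WT replicate 1; the right group and Col1a1 are lowest in Het replicate 3.

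The remaining members with a wide spread were Fzd7, Wnt11 and Sfrp5. Fzd7 shared the highest libraries of the first form and, with Sfrp5, also took the third form below. Fzd7 had 577, 716 and 428 normalized counts in WT, 576, 658 and 212 in Het, and 823, 891 and 389.7 in KO. Wnt11 had 2.81, 14.7 and 9.58 in WT, 11.3, 32.4 and 2.47 in Het, and 7.47, 31.7 and 5.11 in KO. Both were lowest in Het replicate 3, and the genotypes overlapped. Sfrp5, a low-level Wnt-binding inhibitor, had 14.9, 17.8 and 7.37 in WT, 32.9, 14.6 and 9.58 in Het, and 33.8, 48.4 and 2.90 in KO, so that KO held both its highest and its lowest library.

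In the third form, the 3 lowest of the 9 libraries were replicate 3 of each genotype. This held for 7 of 38 members (18.4%): Fzd1, Fzd2, Fzd7, Lrp5, Sfrp2, Sfrp5 and Wnt7b. It held for 7.35% of all genes tested, and this order was chosen after the values were seen. The summed level of 6 markers of radial glia and astrocytes was lowest in the same 3 libraries, at 22700 in WT, 20840 in Het and 16776 in KO, against 24389 to 29239 in the other 6, and 2 of the 6 markers had this order one by one. So did 3 of the 6 hippocampus and hem markers and 2 of the 6 striatal markers. Dkk3 alone of the members had the opposite order, with these 3 libraries on top, as did 9.26% of all genes. The part of any of these tissues in the members' values was not tested.

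The first genotype comparison was KO against WT. With limma, 0 of the 38 members passed an adjusted p of 0.05, as did 0 of all 15069 genes (0%), whose smallest adjusted p was 0.589. At an unadjusted p under 0.05 stood 0 members and 178 of all genes (1.18%; 0.544% higher and 0.637% lower in KO). 22 members had a positive and 16 a negative log2 fold change, with a median of 0.06, while 48.4% of all genes were positive and their median was -0.00. Ligands were positive in 8 of 12 (median 0.12), receptors in 6 of 12 (0.01), secreted inhibitors in 3 of 6 (0.17), agonists in 2 of 3 and intracellular regulators in 3 of 5 (0.05). The count depended on the model and on which libraries entered: 14 were positive with sex as a covariate and 28 without KO replicate 3. For the sex covariate, all WT libraries had Ddx3y, and KO replicate 3 was the only KO library with it. In the 5 libraries with low Cdhr1, 11 were positive, but KO replicate 3 is there the only KO library. The count of members at an unadjusted limma p under 0.05 was 4 with sex as a covariate (Fzd2, Rspo2, Sfrp2 and Wnt7a), beside 3.53% of all genes. It was 3 without KO replicate 3 (Dact1, Sfrp4 and Sfrp5), beside 5.34%.

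KO and WT did not overlap for 2 of 38 members, both higher in KO, against 6.46% of all genes (3.17% higher and 3.3% lower). Dact1 (ENSMUSG00000044548, chr12:71309884-71320107, plus strand) had 2635, 2655 and 2631 normalized counts in WT, 2243, 2475 and 2268 in Het, and 3027, 3206 and 2671 in KO. All Het libraries lay below WT and all KO libraries above it, though KO replicate 3 was only just above. WT averaged 2640.1 ± 12.6, Het 2328 ± 127 and KO 2968 ± 272 (SD over 3 libraries). The log2 fold change of KO against WT was 0.16 ± 0.07 (SE), with a 95% interval from -0.00 to 0.33 and a limma adjusted p of 1.00. It was 0.24 without KO replicate 3, and 0.01 for KO replicate 3 alone against the 2 WT libraries with low Cdhr1. Fzd6 (chr15:39006034-39038188), a Frizzled known for planar cell polarity, was the other. Its normalized counts were 403, 379 and 449 in WT, 501, 471 and 251 in Het, and 656, 497 and 466 in KO. KO lay above WT by a narrow margin, and Het held both sides. Its difference was 0.38 ± 0.26 on the log2 scale (limma adjusted p = 1.00), and 0.11 with sex as a covariate.

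Dkk2, which binds Lrp5 and Lrp6, had the second smallest p of the members in this comparison. Its normalized counts were 119, 77.4 and 118 in WT, 121, 113 and 86.2 in Het, and 172, 139 and 117 in KO. KO replicate 3 lay within the WT range. The log2 fold change of Dkk2 was 0.45 ± 0.24 (limma adjusted p = 1.00), and 0.22 with sex as a covariate. The ligands of highest level gave small differences: -0.17 ± 0.24 for Wnt7b, -0.09 ± 0.14 for Wnt7a and 0.14 ± 0.14 for Wnt5a, all log2 with SE. For Wnt8b, a ligand of low level, the estimate was -1.16 ± 2.24, an error too wide to tell a fall from a rise.

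**Figure D4:**
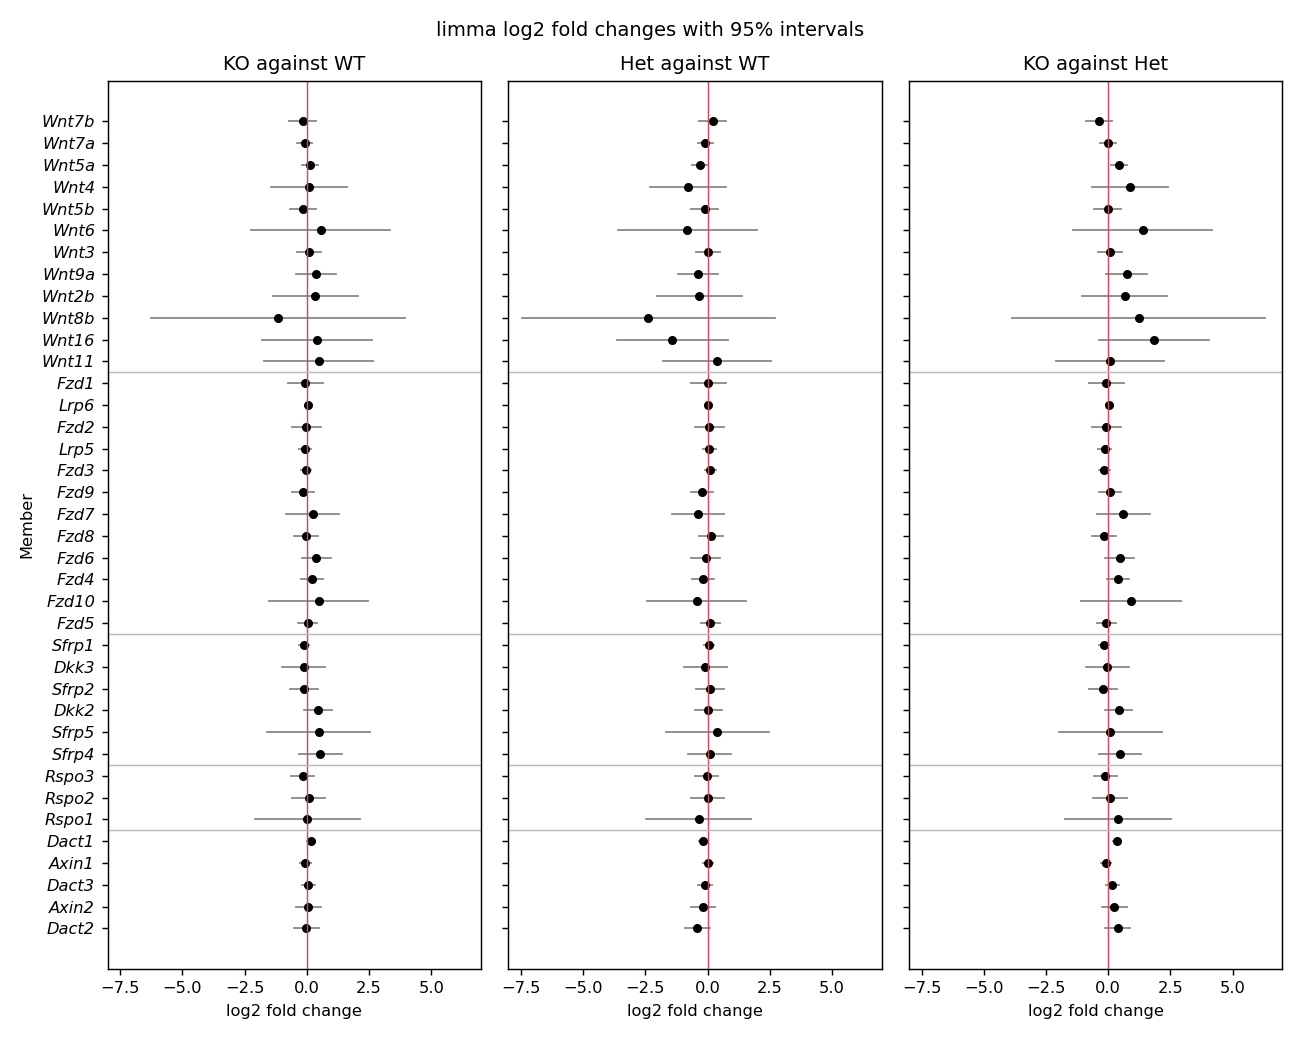
limma log2 fold changes (horizontal axis) with 95% intervals for the 38 tested members (vertical axis, by role) in KO against WT, Het against WT and KO against Het. Intervals are narrow for Lrp6, Axin1 and Dact1, wide for Wnt6, Wnt8b and Fzd10, and no member passed the adjusted threshold.

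In Het against WT, which uses the same WT libraries, 0 members and 0 genes (0%) passed the adjusted limma threshold. 17 members were positive and 21 negative, with a median of -0.08, against 46.2% positive and a median of -0.01 over all genes. Ligands were positive in 3 of 12 (median -0.31), receptors in 7 of 12 (0.02), secreted inhibitors in 5 of 6 (0.07), agonists in 1 of 3 and intracellular regulators in 1 of 5 (-0.18). Without Het replicate 3, 22 of 38 were positive and the median was 0.06. In the 5 libraries with low Cdhr1, 7 were positive. At an unadjusted p under 0.05 stood 1 member, Dact1, and 1.61% of all genes (0.962% higher and 0.644% lower in Het). Its log2 fold change was -0.18 ± 0.07 (95% interval -0.35 to -0.02, limma adjusted p = 1.00), and -0.16 without Het replicate 3. Dact1 was also the 1 member whose libraries did not overlap between Het and WT, against 6.67% of all genes (3.36% higher and 3.31% lower).

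Wnt5a and Dact2 followed by p. Wnt5a (ENSMUSG00000021994, chr14:28504750-28527448, plus strand) had 629.8, 746 and 648 normalized counts in WT, 503, 652 and 496 in Het, and 868, 694 and 683 in KO. Het replicates 1 and 3 lay below every WT and KO library, and Het replicate 2 lay within the WT range. The log2 fold change of Het against WT was -0.30 ± 0.14 (limma adjusted p = 1.00). Dact2 had 85.5, 99.4 and 122 in WT, 65.0, 76.9 and 87.9 in Het, and 94.8, 123 and 83.5 in KO. Het replicate 3 overlapped with WT. It differed by a log2 fold change of -0.41 ± 0.22 (limma adjusted p = 1.00), and -0.16 in the libraries with low Cdhr1.

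Of the 13 members lowest in Het replicate 3, the direction of Het against WT turned for 7 when that library was left out and did not for 6, a comparison that takes away the library they were chosen by. The log2 fold change went from -0.78 to 0.12 for Wnt4, from -0.82 to 0.85 for Wnt6, from -0.43 to 0.74 for Fzd10, from -0.38 to 0.13 for Fzd7 and from -0.18 to 0.08 for Axin2. It went from -0.33 to 0.29 for Wnt2b and from -0.07 to 0.25 for Fzd6. It kept its sign for Wnt5a (-0.30 and -0.23), Wnt9a (-0.38 and -0.04), Fzd4 (-0.19 and -0.06), Lrp6 (0.01 and 0.05) and Wnt11 (0.39 and 1.24). Wnt7b, the ligand of highest level, was higher in Het by 0.20 ± 0.24 with it and by 0.45 without it. For Wnt16 the value stayed negative, at -1.41 with and -0.09 without it. None of these values passed the adjusted threshold.

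KO against Het shares its libraries with both comparisons above. 0 members and 0 genes (0%) passed, with a smallest adjusted limma p of 0.942. 24 members were positive and 14 negative, with a median of 0.08, against 50.4% positive and a median of 0.00 over all genes. Ligands were positive in 9 of 12 (median 0.56), receptors in 6 of 12 (-0.01), secreted inhibitors in 3 of 6 (0.02), agonists in 2 of 3 and intracellular regulators in 4 of 5 (0.24). Without Het replicate 3, 19 were positive and the median was -0.01. At an unadjusted p under 0.05 stood 2 members, Dact1 and Wnt5a, or 2 of 38 beside 3.59% of all genes (1.42% higher and 2.17% lower in KO). With the replicate number as a block there were 7, Dact1, Wnt5a, Wnt7b, Wnt9a, Fzd7, Sfrp1 and Lrp5, beside 6.53% of all genes, and still 0 genes passed. Leaving out single libraries gave 2 to 5 members, Dact1 and Wnt5a each time.

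Dact1 gave the smallest p of the members in KO against Het, and ranked 9 among all 15069 genes by p. Its log2 fold change was 0.35 ± 0.07 (95% interval 0.18 to 0.51, limma adjusted p = 0.942). It was 0.33 without Het replicate 3, 0.42 without KO replicate 3, and 0.17 for KO replicate 3 alone against the 2 Het libraries with low Cdhr1. The Wnt5a difference was 0.44 ± 0.14 (95% interval 0.12 to 0.77, limma adjusted p = 0.942), 0.38 without Het replicate 3, and 0.26 for KO replicate 3 alone against the same 2 Het libraries. The KO libraries of both genes lay above all Het libraries. Sfrp1 was the other member without overlap, in the other direction: 5486, 4738 and 4961 normalized counts in Het and 4591, 4269 and 4635 in KO, with 5447, 4394 and 4817 in WT spanning both. Its log2 fold change was -0.17 ± 0.09 (limma adjusted p = 0.942). These 3 members stand beside 7.82% of all genes without overlap (3.15% higher and 4.68% lower).

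Wnt9a followed by p. This ligand (chr11:59306928-59333552) had 73.0, 114 and 86.4 normalized counts in WT, 75.1, 101 and 42.4 in Het, and 108, 163 and 87.6 in KO, and Het replicate 2 lay within the KO range. The Wnt9a difference was 0.74 ± 0.36 on the log2 scale (limma adjusted p = 0.942), and 0.40 without Het replicate 3. Wnt7b differed by -0.37 ± 0.24 and by -0.63 without that library. The test of any difference among the genotypes gave 0 genes at the adjusted threshold (0%), and 2 members at an unadjusted limma p under 0.05 beside 1.72% of all genes: Dact1, which ranked 15 among all genes, and Wnt5a, which ranked 150, both with an adjusted p of 1.00.

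**Figure D5:**
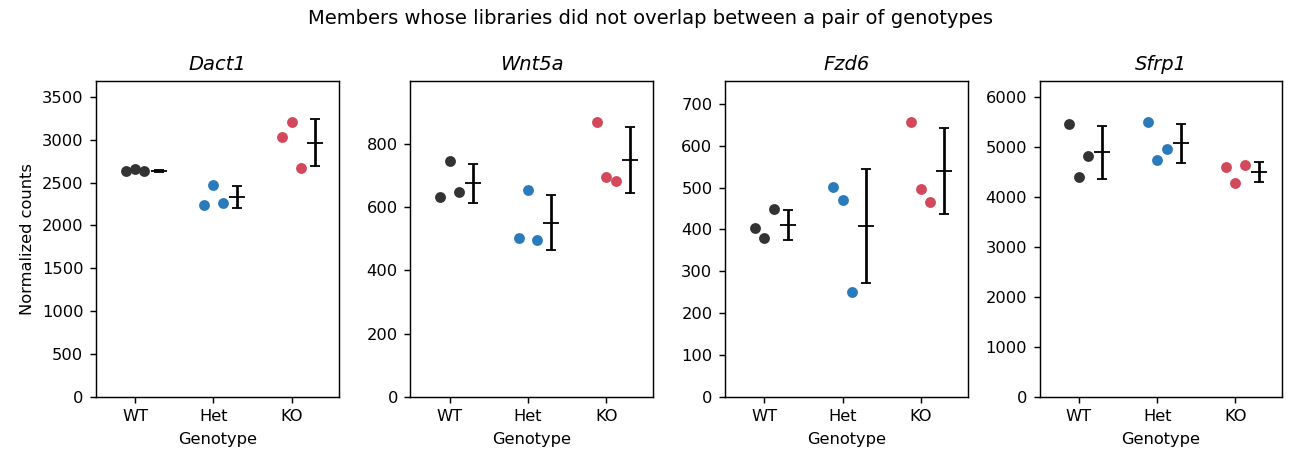
Normalized counts (vertical axis, from 0) of Dact1, Wnt5a, Fzd6 and Sfrp1 by genotype, with 1 point per library and the mean and SD of 3 libraries. Dact1 lies lowest in Het and highest in KO with no overlap, Wnt5a and Sfrp1 are apart only between Het and KO, and Fzd6 only between WT and KO.

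A list of 71 other pathway genes covered secretion, other receptors, the Dishevelled and destruction complex proteins, nuclear effectors and planar polarity genes, and 67 were tested. In each comparison 0 passed the adjusted threshold. In KO against WT, 43 were positive and 24 negative, and 0 had an unadjusted limma p under 0.05. The 2 smallest were Ptk7, a polarity co-receptor (0.17 ± 0.12), and Tnks, an enzyme that marks Axin for degradation (0.08 ± 0.07, log2 with SE). With sex as a covariate, 27 of the 67 were positive.

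In Het against WT, 32 were positive and 35 negative, and 3 had an unadjusted p under 0.05, all higher in Het: Dvl3, Celsr3 and Celsr2, beside 1.61% of all genes (0.962% higher). The count was 11 with sex as a covariate and 2 to 5 when single libraries were left out. Without Het replicate 3, 52 of the 67 were positive. Dvl3, a Dishevelled protein that relays Frizzled signals, had 3746, 3684 and 3659.8 normalized counts in WT, 4044, 4048 and 4134 in Het, and 3675, 3741 and 3726 in KO. All Het libraries were above all others, by a log2 fold change of 0.14 ± 0.04 over WT. Het and WT did not overlap for 4 of the 67, against 6.67% of all genes. Celsr3, an atypical cadherin of axon guidance, had 19284, 17492 and 18621 in WT, 20283, 22236 and 21522 in Het, and 18050.5, 19537 and 20046 in KO. In KO against Het, 35 were positive and 32 negative, and 6 had an unadjusted p under 0.05, all lower in KO: Dvl3, Celsr2, Csnk1e, Bcl9, Celsr3 and Chd8, beside 3.59% of all genes (2.17% lower). The count was 2 without KO replicate 1, 2 without KO replicate 2, 3 without Het replicate 3, 3 without WT replicate 2 and 11 without KO replicate 3. Celsr2 had 13180.0, 14413 and 14096.5 in Het and 12143.5, 11205 and 12433 in KO, with WT at 13387, 12411 and 11636. Its log2 fold change was -0.22 ± 0.07 (limma adjusted p = 0.942).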

How the data were processed

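RNA-seq values from 9 cortex libraries, 3 per Cyfip2 genotype, were analysed. The deposited table holds 1 signal per gene and library. The file's name calls it a DESeq count, and the values are not whole and have nearly equal totals, so it was read as gene counts that the authors divided by size factors; no source used here states the step. GRCm38, R 3.6.0, DESeq2 1.19.11 and Salmon 0.11.2 appear, without role or order, in the submitters' processing notes. Libraries were made with a stranded poly(A) kit, per the labels' protocols. Low values clustered near steps worth about 1 read, from which approximate depth was taken, but whole reads could not be recovered, so no count test was run.

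Groups came from the labels. Genes with a mean of 10 or more (15069) were taken as log2(value + 1), which understates fold changes of low genes, and fitted over all 9 libraries with limma 3.58.1 (R 4.3.3, trend), two-sided, with p-values adjusted by Benjamini and Hochberg over all genes and a threshold of 0.05. The fit was tested on simulated data. Genes were located with GENCODE M21 (GRCm38), and 18783 of 18820 IDs matched a symbol. Promoters came from RefSeq, where 30 of 45 members had an entry.

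Members, pathway list, markers and tests were chosen with earlier results of these data known. Named members were those called, the 3 with the smallest p per comparison, the 3 highest per kb in each role (2 for roles of up to 5), the 10 with the largest ratio between libraries, and those whose KO and WT libraries did not overlap; Wnt3a, Axin2, Wls, Nkd1, Lef1, the genes of the closing observations and the members without overlap between Het and KO were added after their values were seen. Deviations of same-numbered libraries from their group means correlated at 0.45, 0.10 and 0.47 between KO and Het, so the numbers may pair those libraries, although the labels do not say so. Alternatives were a replicate block, other pseudocounts, filters and scalings, and a fit of 2 genotypes. Others were covariates for sex and for high Cdhr1, the libraries with low Cdhr1, and leaving out each library. A further listed cortical marker is not reported here.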

Additional observations from a re-analysis of the deposited data

How the results depend on the processing

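No alternative called a member. The count of genes called, 0 in all 3 pairwise comparisons and in the test of any difference, was 0 in 76 of 87 alternatives and 1 in the other 11. Fitting only the 2 genotypes compared gave 1 gene in Het against WT and 1 in KO against Het. Leaving out single libraries gave 0 to 1 in each of the 4 tests: the gene was Gm3650 without KO replicate 3, Lenep without WT replicate 1 and Gm14288 without Het replicate 1, none of them a member, and the cause was not tested. With the replicate number as a block, 0 genes were called in each test. Same-numbered libraries correlated at -0.01, 0.06 and -0.03 between KO and WT and at -0.07, 0.25 and 0.03 between Het and WT, and not every one exceeded 0.1, so the block rests on numbers alone there; Dact1 in KO against WT then had an unadjusted limma p under 0.05, and no other member did. Over all alternatives, 8 of 38 members kept their sign in KO against WT, 10 in Het against WT and 17 in KO against Het. Quantile scaling left 19 of 38 positive in KO against WT and 20 in KO against Het. Depth limits the members near 10 normalized counts, and 3 libraries per genotype leave a median SE of 0.24 on the log2 scale for the members.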

Other observations

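3 pairs of Wnt genes are neighbours in the GRCm38 annotation, an arrangement known from other vertebrates. Wnt6 and Wnt10a lie 6193 bases apart on the plus strand of chromosome 1, and both were highest in KO replicate 1. Wnt10a had 1.22, 5.24 and 6.32 normalized counts in WT, 8.33, 6.40 and 2.18 in Het, and 15.1, 11.9 and 0.991 in KO, so that its lowest library was KO replicate 3 while that of Wnt6 was Het replicate 3. Wnt3a and Wnt9a lie 16175 bases apart on chromosome 11 on opposite strands and shared their 4 highest libraries, although Wnt9a was present in every library and Wnt3a was at 0 in Het replicate 3 and KO replicate 3. Wnt9b and Wnt3 lie 24328 bases apart on chromosome 11, and their levels were far apart. Wnt9b did not exceed 3.74 normalized counts, while Wnt3 had 84.7, 70.6 and 118 in WT, 91.8, 83.7 and 96.5 in Het, and 91.4, 99.5 and 95.3 in KO, with all mutant libraries inside the WT range.

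Adgra2 and Reck, which carry the Wnt7 signal to brain endothelium, were both highest in KO replicate 1 and lowest in Het replicate 3. Adgra2 had 1014, 959 and 1184 normalized counts in WT, 1652, 1120.1 and 401 in Het, and 2048, 1358 and 1199.8 in KO. Reck had 577, 455 and 491 in WT, 724, 567 and 414 in Het, and 748, 674 and 465 in KO. KO lay above WT without overlap for Adgra2, by 0.51 ± 0.45 on the log2 scale, and overlapped with it for Reck. Of the 67 other pathway genes tested, 2 did not overlap between KO and WT, against 6.46% of all genes. The 6 endothelial markers summed to 7612 to 8147 in WT, 5767 to 9311 in Het and 8630.1 to 10198 in KO. Taken singly, only Pecam1 was higher in KO without overlap (1099 to 1524, against 992 to 1019 in WT). Slco1c1 (1487 to 1773 in KO, 1516 to 1934 in WT) and Mfsd2a (975 to 1120 and 1095 to 1147) were not higher in KO. The meningeal sum (347 in Het replicate 3 and 18017 in KO replicate 1) and the sum of 5 pericyte markers (5130.1 and 10092) were lowest and highest in the same libraries. The part of these tissues in the values was not tested.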
